A study of Glycine max with 12 samples.

Results

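In soybean (Glycine max) roots, 111 genes were raised by manganese in the plant material labelled W and nearly level in the material labelled OX3, out of 43517 genes in the count table. They were chosen from read counts scaled to the library total (CPM). The mean over 12 libraries had to reach 2 CPM, and the lowest W library at 50 µM had to lie above the highest W library at 5 µM. The log2 ratio of 50 over 5 µM, taken on group means with 0.5 CPM added, had to be at least 1 in W and between -0.3 and 0.3 in OX3. These 111 were 0.437% of the 25399 genes with a mean of at least 2 CPM.

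RNA of whole roots was sequenced in 4 groups of 3 libraries: OX3 at 50 µM MnSO4, OX3 at the control concentration of 5 µM, W at 50 µM and W at 5 µM. The authors' tables head OX3 as OX and W as WT. The labels do not say what genotype or transgene these stand for, how old the plants were, how long they were treated, or whether the libraries of a group came from separate plants. No targeted gene could therefore be checked, and any spread given here is the spread between libraries, which may be technical.

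Manganese is a micronutrient of plants, a cofactor of the oxygen-evolving complex of photosynthesis and of mitochondrial superoxide dismutase. In excess it is toxic, and it competes with iron and other divalent metals for uptake. Plant roots take it up through transporters of the NRAMP and ZIP families and can move it into vacuoles through metal tolerance proteins. Genes are given by their identifiers in the Williams 82 annotation, in which the number before G is the chromosome, and the version ending is omitted. The files do not pair identifiers with names and 0 of them matched the reference gene table, so no role can be given to a member, no pathway or marker list had a member, and the tissue could not be checked against markers. In whole roots, fewer cells of a type and less RNA per cell cannot be told apart.

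Library totals lay between 15175866 and 19408318 counts, so that 1 read was worth between 0.0515 and 0.0659 CPM. On these totals the median gene was not at 0: over the 25399 genes the median log2 ratio of 50 over 5 µM was -0.16 in W and -0.15 in OX3, and it was -0.03 in W and 0.01 in OX3 on totals normalised by TMM (edgeR's trimmed mean of M values). The median log2 ratio of OX3 over W was 0.16 at either dose on raw totals, and 0.00 at 5 µM and 0.03 at 50 µM on TMM totals.

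The rule separated the members from a larger response. In all, 846 genes met the W criteria, 3.33% of the 25399. Of these 846, 660 had an OX3 log2 ratio above 0.3, 75 had one below -0.3, and 111 lay between. The members were thus 13.1% of the genes raised in W. Their log2 ratio had a median of 0.03 in OX3, and a median of 1.26 in W with a range from 1.00 to 3.84. The criteria fixed these values, which are a description and carry no test.

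**Figure D1:**
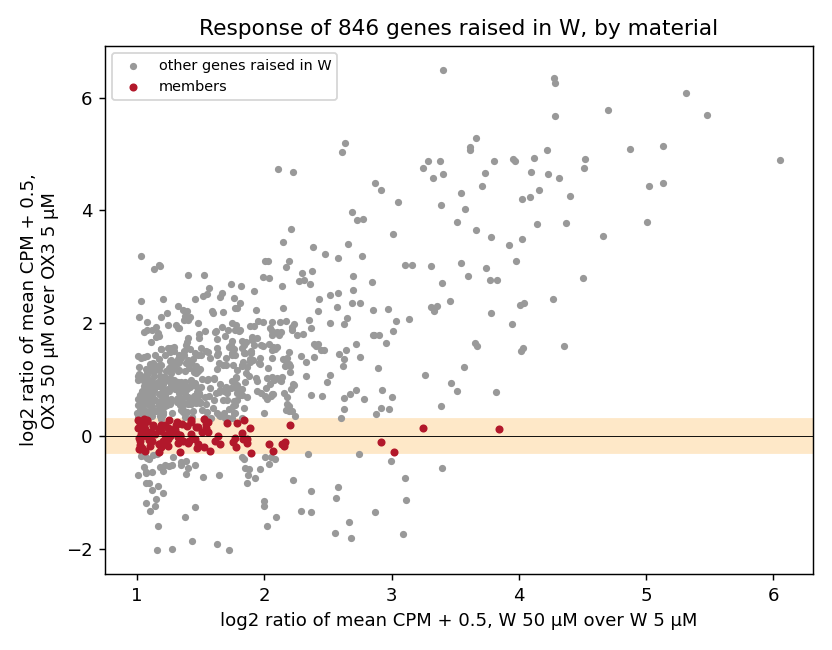
Log2 ratio of mean CPM + 0.5 at 50 over 5 µM MnSO4 in OX3 (vertical axis) and in W (horizontal axis) for the 846 genes raised in W. The 111 members (red) fill the shaded band from -0.3 to 0.3, and 660 of the other genes (grey) lie above it.

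The members closest to the thresholds were not set apart from genes just outside them. The 3 members with the smallest W log2 ratio had 1.004, 1.009 and 1.016, and the 3 genes just outside had 0.993, 0.992 and 0.989. At the upper OX3 limit the nearest members had 0.2998, 0.2993 and 0.2937 and the nearest genes outside 0.3085, 0.3109 and 0.3125. At the lower limit the members had -0.296, -0.287 and -0.277 and the genes outside -0.309, -0.313 and -0.320. In mean CPM the lowest members had 2.0985, 2.129 and 2.1698, and the highest excluded genes 1.9083, 1.9043 and 1.8848. The smallest gap between the lowest W library at 50 µM and the highest at 5 µM was 0.0103 on the log2 scale, and the nearest excluded gene had -0.0057.

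Members covered a wide range of levels. Per kilobase of gene length, mean FPKM had a median of 6.18 in OX3 at 50 µM, 5.68 in OX3 at 5 µM, 10.5 in W at 50 µM and 3.26 in W at 5 µM. The highest mean FPKM of a member in W was 358 at 50 µM and 150 at 5 µM. Gene lengths had a median of 1497 bp, against 1921 bp over the 25399 genes and 1410.5 bp over the 660 genes that were also higher in OX3.

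By library, most medians of the members in OX3 lay between those of the W groups. Relative to the mean of the W controls, the median member stood at log2 values of 0.64, 0.88 and 0.21 in OX3 replicates 2, 3 and 4 at 50 µM, and at 0.36, 0.33 and 1.01 in OX3 replicates 2, 3 and 4 at 5 µM. It stood at 0.98, 1.23 and 1.33 in W replicates 1, 2 and 3 at 50 µM, and at 0.08, -0.31 and 0.19 in W replicates 2, 3 and 4 at 5 µM. Replicate 4 at 5 µM was the highest OX3 library and lay as high as W replicate 1 at 50 µM. Replicate 4 at 50 µM was the lowest OX3 library.

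**Figure D2:**
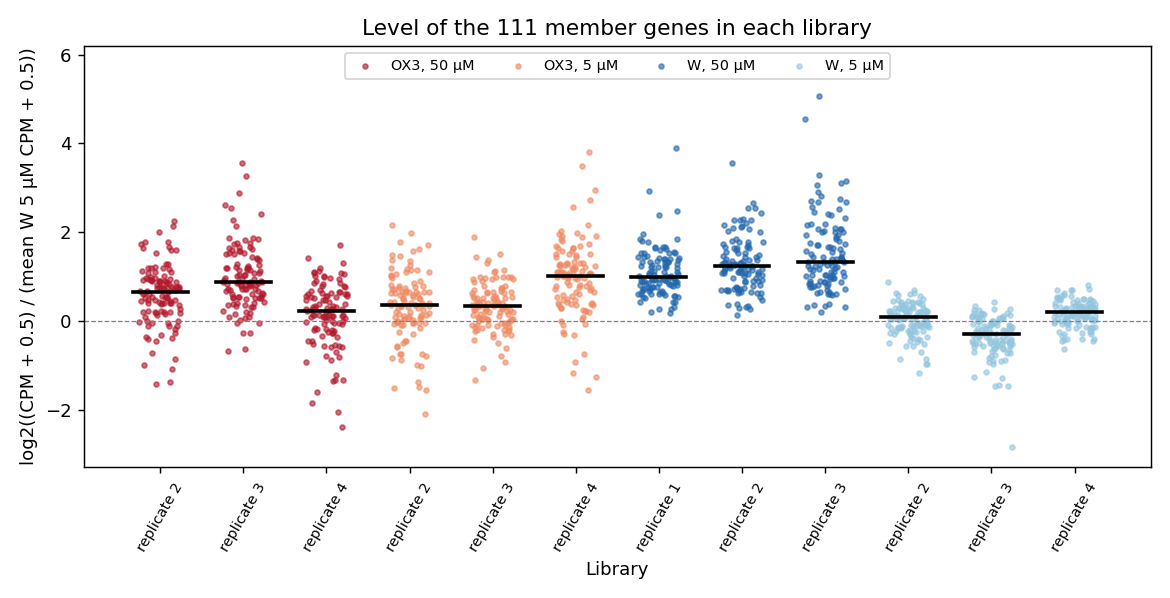
Each point is one of the 111 members in one library, as log2 of its CPM + 0.5 over the mean W control CPM + 0.5, with a black bar at the median. The medians of the OX3 libraries (red and orange) lie between 0.21 and 1.01, those of W at 50 µM (dark blue) between 0.98 and 1.33, and those of W at 5 µM (light blue) between -0.31 and 0.19.

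Being level in OX3 and raised in W requires that the materials differ at one dose or the other. The median log2 ratio of OX3 over W was 0.65 at 5 µM and -0.62 at 50 µM on raw totals. It was 0.49 and -0.76 at these doses on TMM totals, and 0.47 and -0.78 on DESeq2 size factors, so how the difference divides between doses depends on the scaling. The mean of OX3 was above that of W in 104 of 111 members at 5 µM (101 on TMM totals). It was below that of W in 106 members at 50 µM (108 on TMM totals). Of the 25399 genes, 16578 had the higher mean in OX3 at 5 µM (12671 on TMM totals). At 50 µM, 8631 of them had the lower mean in OX3 (11913 on TMM totals). The comparisons in members use the same W libraries that the rule selected as low at 5 µM and high at 50 µM. The directions therefore follow in part from the choice of members. On a scale where the W mean is 0 at 5 µM and 1 at 50 µM, the mean of the 6 OX3 libraries lay at a median of 0.50, with quartiles of 0.35 and 0.68. The 660 genes higher in both materials gave a median of 0.48 on the same scale, close to that of the members. This scale averages OX3 over both doses, so like positions can hide unlike patterns. In the 660 the median log2 ratio of OX3 over W was -0.03 at 5 µM and -0.45 at 50 µM on raw totals, where the members had 0.65 and -0.62.

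OX3 libraries lay above every W control in 19 members. All 6 OX3 libraries were above all 3 W controls in these, which is 17.1% of members, where the same held for 2.04% of the 25399 genes. The higher share follows in part from the rule, which chose members with low W controls. On TMM totals 9 of the 19 met the criterion. Their median position was 0.68, and their median log2 ratio of OX3 over W was 0.87 at 5 µM and -0.41 at 50 µM.

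Glyma.13G081100 was the member of this kind with the largest ratio between materials at 5 µM. In OX3 it had 1.68, 4.61 and 2.14 CPM at 50 µM and 3.45, 3.80 and 2.64 CPM at 5 µM. W roots had 3.63, 2.85 and 1.99 CPM at 50 µM and 1.30, 0.307 and 0.362 CPM at 5 µM. Both OX3 groups overlapped W at 50 µM, and only the W controls stood below. Its log2 ratio of OX3 over W was 1.71 at 5 µM and -0.01 at 50 µM.

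Glyma.10G217300 showed the same order. It had 7.67, 7.91 and 6.48 CPM at 50 µM and 10.7, 3.22 and 6.06 CPM at 5 µM in OX3. W roots had 7.65, 5.19 and 5.84 CPM at 50 µM and 2.71, 1.23 and 3.01 CPM at 5 µM. Its lowest OX3 control, at 3.22 CPM, was close to the highest W control, at 3.01 CPM.

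Glyma.20G051700 had the highest position of any member, 1.40. Its mean was 15.5 ± 6.68 CPM at 50 µM and 15.9 ± 4.90 CPM at 5 µM in OX3, and 11.8 ± 2.84 CPM at 50 µM and 5.56 ± 2.14 CPM at 5 µM in W (SD, n = 3 each). OX3 was above W at either dose for this gene, by log2 ratios of 0.38 at 50 µM and 1.44 at 5 µM. Glyma.06G019500 and Glyma.15G008300 were also among the 5 highest positions, at 1.14 and 1.08, each with a mean in OX3 at 5 µM at or above the mean in W at 50 µM.

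Steadier members were found in the same class. Glyma.13G344200 had 77.5, 92.8 and 69.7 CPM at 50 µM and 73.3, 76.3 and 107 CPM at 5 µM in OX3. W libraries had 82.4, 109 and 149 CPM at 50 µM and 49.4, 36.3 and 46.4 CPM at 5 µM. The OX3 libraries overlapped W at 50 µM and lay above all the W controls. Glyma.14G088900 averaged 22.5 ± 4.82 CPM at 50 µM and 27.2 ± 3.80 CPM at 5 µM in OX3, and 30.9 ± 9.87 CPM at 50 µM and 14.5 ± 2.53 CPM at 5 µM in W (SD, n = 3 each). Glyma.19G093100 averaged 6.002 ± 0.916 and 5.68 ± 1.27 CPM in OX3 at 50 and 5 µM, and 7.34 ± 1.09 and 2.78 ± 1.15 CPM in W at 50 and 5 µM (SD, n = 3 each). Glyma.15G180900 had a position of 0.62. These 4 were among the 5 members with the smallest unadjusted p for manganese in W. Glyma.18G291500, the fifth, is described below.

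In another class OX3 stayed low. In 12 members all 6 OX3 libraries lay below all 3 W libraries at 50 µM, 10.8% of members, where 1.76% of the 25399 genes did so. This share too follows in part from the rule, which chose members high in W at 50 µM. The order of the class sizes turned with the scaling. On TMM totals 23 members met this criterion, the 12 included, against 9 for the class above the W controls, and on DESeq2 size factors 26 did against 9. Their median position was 0.10, and their median log2 ratio of OX3 over W was 0.18 at 5 µM and -1.29 at 50 µM.

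Glyma.09G024500 lay in OX3 at the level of the W controls. It had 2.34, 4.02 and 1.63 CPM at 50 µM and 1.75, 2.69 and 2.69 CPM at 5 µM in OX3. W roots had 6.81, 6.29 and 12.5 CPM at 50 µM and 1.41, 2.51 and 3.86 CPM at 5 µM. W at 50 µM was the one group that stood apart. Glyma.20G205900 was similar, with means of 6.85 ± 4.56 and 6.69 ± 0.985 CPM in OX3 at 50 and 5 µM, and 18.5 ± 2.11 and 8.10 ± 3.76 CPM in W at 50 and 5 µM (SD, n = 3 each). Glyma.01G203400, with a position of -0.14, was outside this class and less clear. It averaged 16.2 ± 12.7 and 14.8 ± 8.24 CPM in OX3 at 50 and 5 µM, and 39.9 ± 28.6 and 17.5 ± 4.76 CPM in W at 50 and 5 µM (SD, n = 3 each), and its W ratio was 0.42 without replicate 3.

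Glyma.16G159700 was the 1 member with every OX3 control below every W control, where 3.68% of the 25399 genes were so. It had 0.719, 1.52 and 0.394 CPM at 50 µM and 1.44, 0.792 and 0.844 CPM at 5 µM in OX3. In W it had 8.32, 5.51 and 4.45 CPM at 50 µM and 2.82, 3.004 and 2.41 CPM at 5 µM. OX3 lay below W at either dose with no overlap, by log2 ratios of -2.26 at 50 µM and -1.09 at 5 µM, which gave it the lowest position, -1.14. By its identifier it precedes the chromosome 16 genes that differed between the materials at 5 µM in edgeR's test, Glyma.16G161000, Glyma.16G171900 and Glyma.16G214500. Glyma.16G195600 and Glyma.16G212500, both members, are numbered between these. Chromosome 16 held 5 members in all, 4.5% of members, close to its 3.55% of the 25399 genes. Glyma.16G212500 had 2.46, 8.57 and 0.619 CPM at 50 µM and 2.68, 8.13 and 2.11 CPM at 5 µM in OX3, and 11.95, 24.3 and 34.3 CPM at 50 µM and 2.71, 4.35 and 8.98 CPM at 5 µM in W.

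**Figure D3:**
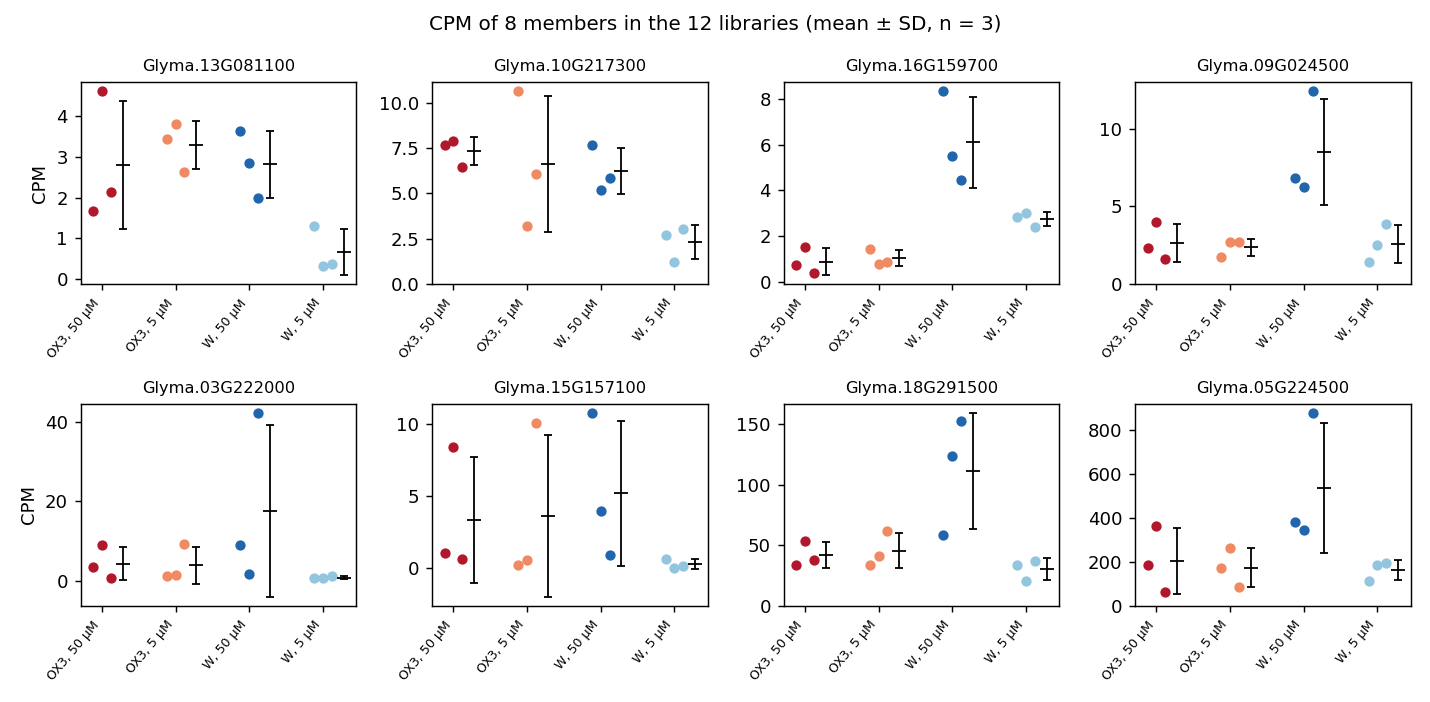
CPM of 8 members in each library of OX3 at 50 and 5 µM and W at 50 and 5 µM, with mean ± SD (n = 3) to the right of the points. Glyma.13G081100 and Glyma.10G217300 are low only in the W controls, Glyma.16G159700 and Glyma.09G024500 are high only in W at 50 µM, and Glyma.03G222000 and Glyma.15G157100 have 1 high library in each OX3 group.

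Several of the members with the largest W ratios had uneven libraries. Glyma.03G222000 had the largest, 3.84. It had 3.48, 8.90 and 0.619 CPM at 50 µM and 1.13, 1.32 and 9.33 CPM at 5 µM in OX3. In W it had 9.10, 1.56 and 42.3 CPM at 50 µM and 0.597, 0.552 and 1.15 CPM at 5 µM. Replicate 3 supplied most of the W mean, and the W ratio was 2.205 without it. The OX3 ratio of 0.13 was 1.95 without the replicates numbered 4.

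Glyma.16G039800 had a W ratio of 3.25, with 4.92, 3.63 and 43.1 CPM at 50 µM and 1.79, 1.41 and 0.904 CPM at 5 µM in W. Its W ratio was 1.35 without replicate 3 at 50 µM. Its OX3 means were 3.22 ± 2.27 CPM at 50 µM and 2.85 ± 1.51 CPM at 5 µM (SD, n = 3 each). Of the other 8 members among the 10 with the largest W ratios, Glyma.02G292100, Glyma.09G107100 and Glyma.07G108900 had W ratios of 2.198, 2.06 and 2.16, and of 1.02, 0.97 and 1.31 without that library. Glyma.08G227400, Glyma.04G206700 and Glyma.08G117500 had 3.02, 2.16 and 2.14, and 2.94, 2.53 and 2.46 without it.

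Glyma.15G157100 had its high libraries elsewhere. In OX3 it had 1.02, 8.43 and 0.619 CPM at 50 µM and 0.206, 0.581 and 10.1 CPM at 5 µM. W libraries had 10.8, 3.95 and 0.903 CPM at 50 µM and 0.652, 0 and 0.121 CPM at 5 µM. One library stood above the others in each of 3 groups. Its OX3 ratio of -0.10 was 2.11 without replicate 4 at 5 µM, and Glyma.08G117500 had 2.46 under the same condition.

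Across members, W replicate 3 was the highest of its group at 50 µM in 52 of 111 (46.8%, against 60.6% of the 660 genes higher in both materials and 27.8% of all 25399 genes). Without it the W log2 ratio stayed at or above 1 in 82 members, and the median was 1.19. Among the 5 members with the highest mean CPM, Glyma.08G042700 and Glyma.05G079700 rested on it. Glyma.08G042700 had 138, 146 and 141 CPM at 50 µM and 157, 113 and 131 CPM at 5 µM in OX3, and 123, 111 and 406 CPM at 50 µM and 107, 93.6 and 104 CPM at 5 µM in W. Its W ratio was 0.20 without replicate 3, and that of Glyma.05G079700 was 0.44.

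Glyma.17G171100 and Glyma.05G009000, also among the 5 highest in CPM, did not need that library, with W ratios of 1.13 and 1.01 without it. The most abundant member, Glyma.05G224500, had 185, 363 and 64.4 CPM at 50 µM and 172, 262 and 85.2 CPM at 5 µM in OX3. Its W libraries had 384, 347 and 878 CPM at 50 µM and 111, 184 and 197 CPM at 5 µM. Replicate 3 was the highest and replicate 4 the lowest OX3 library at either dose, and the highest OX3 library was above the lowest W library at 50 µM.

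The OX3 libraries of the members were often unequal. Their median CV (SD over mean of a group) was 42.7% at 50 µM and 41.0% at 5 µM. It was 61.3% and 52.0% in the 660 genes higher in both materials, and 23.5% and 25.4% over the 25399 genes. In 39 members (35.1%) replicate 4 was both the highest OX3 library of its group at 5 µM and the lowest at 50 µM. The same held for 7.2% of the 25399 genes, and for 40.0% of the 660 genes higher in both materials, a share close to that of the members. Taking OX3 libraries by number, the median log2 ratio of 50 over 5 µM was 0.15 for number 2, 0.56 for number 3 and -0.75 for number 4. The ratio was above 0 in 67, 95 and 15 of 111 members in that order (60.4%, 85.6% and 13.5%). Over the 25399 genes the medians were -0.44, -0.06 and 0.01, with 25.4%, 46.3% and 51.0% above 0. In the 660 genes higher in both materials they were 1.61, 2.05 and 0.24, with 85.2%, 98.9% and 60.9% above 0. Number 4 was thus the lowest in the 660 as well. Whether the numbers pair OX3 libraries across doses is not stated, and the deviations of same-numbered OX3 libraries did not go together (r = -0.186, -0.021 and -0.0755 across genes, for numbers 2, 3 and 4).

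Without both OX3 libraries numbered 4, a choice made after the data were seen, the median OX3 log2 ratio of the members was 0.39, against -0.23 over the 25399 genes. The ratio then exceeded 0.3 in 63 of 111 members (56.8%, against 18.9% of all genes) and reached 1 in 17 members. It stayed within 0.3 of 0 in 47. The members were chosen as raised in W and the 25399 genes were not, so the 2 shares are not of like sets. Of the 39 members with the pattern in replicate 4, 33 exceeded 0.3, and so did 30 of the other 72. In the 39, leaving out these libraries can only raise the ratio, so their count follows in part from the pattern. Without replicate 4 at 50 µM alone 39 members exceeded 0.3, and without replicate 4 at 5 µM alone 48 did and 7 fell below -0.3. Some other OX3 libraries, left out alone, moved the ratio down. Without replicate 3 at 50 µM the median was -0.155, with 42 members below -0.3 and 9 above 0.3. Without replicate 2 at 5 µM 22 were below and 10 above, and without replicate 3 at 5 µM 15 and 8. Without replicate 2 at 50 µM 13 were below and 19 above. In the 660 genes higher in both materials, leaving out both libraries numbered 4 gave a median of 1.74, against 1.22 with them. The label "raised only in W" thus held for 47 of the 111 genes with or without the 2 OX3 libraries numbered 4. The part of single libraries in the level OX3 means was not tested.

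**Figure D4:**
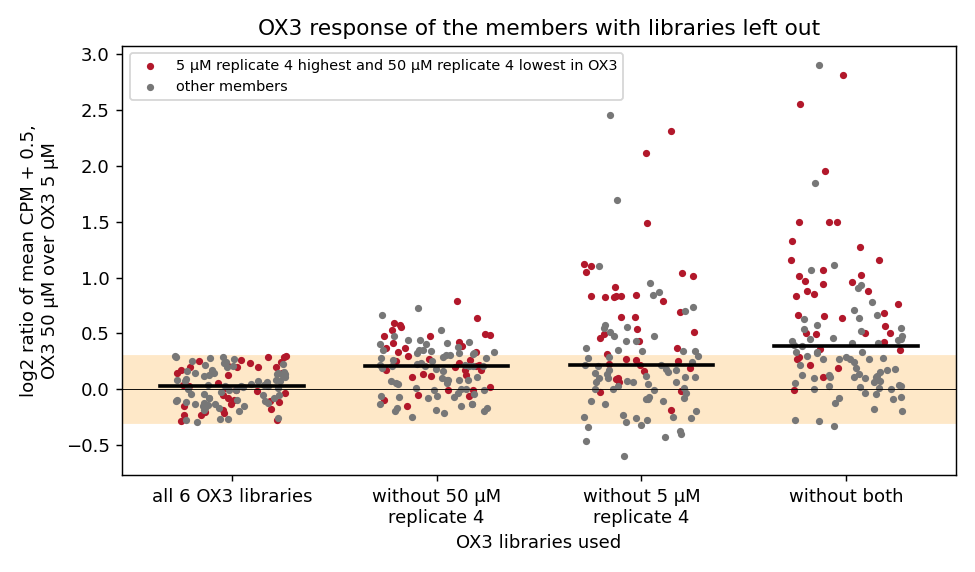
OX3 log2 ratio of mean CPM + 0.5 at 50 over 5 µM for the 111 members, with all 6 OX3 libraries and with replicates numbered 4 left out, and black bars at the medians (0.03, 0.21, 0.22 and 0.39 from left to right). Red points are the 39 members in which replicate 4 was the highest OX3 library at 5 µM and the lowest at 50 µM, and the band is the range from -0.3 to 0.3 that the rule allowed.

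Glyma.18G291500 had one of the smallest interaction p-values of the members (unadjusted p = 0.0036, adjusted p = 0.65 in edgeR's test). Its OX3 ratio was level with and without the libraries numbered 4. In OX3 it had 33.4, 53.8 and 38.01 CPM at 50 µM and 33.7, 41.0 and 61.5 CPM at 5 µM. In W it had 58.7, 123 and 153 CPM at 50 µM and 33.6, 20.2 and 37.0 CPM at 5 µM. OX3 overlapped W only at the lowest W library at 50 µM and the upper W controls. Its OX3 ratio was -0.12 with all libraries and 0.22 without both numbered 4, and its W ratio was 1.87, and 1.57 without replicate 3. Of the other 4 with the smallest interaction p, Glyma.13G344200, Glyma.14G088900 and Glyma.13G081100 had OX3 ratios of 0.19, -0.27 and -0.18 without both, and Glyma.08G363600 had 15.6, 18.3 and 18.6 CPM in OX3 at 5 µM, above all its W controls at 11.8, 5.09 and 10.6 CPM.

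Fitted over all 31841 genes tested in edgeR's quasi-likelihood model, no member passed an adjusted p of 0.05 in any of 5 comparisons. For manganese in W, which the rule used, 0 of 111 members were called higher, where 0.00314% of genes tested were (1 gene). At an unadjusted p under 0.05, 100 members were higher, where 8.47% of all genes were. The adjusted p of members ranged from 0.16 to 0.35 in edgeR's test. DESeq2 called 59 of the 109 members it tested, where 2.76% of genes were called higher. Nothing is read from these counts, since the members were chosen on this contrast.

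For manganese in OX3, edgeR called 0 members, where 0.0% of genes tested were called. At an unadjusted p under 0.05, 0 members were higher and 0 lower, where 7.22% of genes were higher and 7.78% lower. DESeq2 called 0 of 109 members, where 3.66% of genes were called. The interaction is the manganese response of OX3 less that of W. edgeR called 0 members for it, where 0.00314% of genes were called lower (1 gene). At an unadjusted p under 0.05, 38 members were lower, where 3.99% of all genes were. DESeq2 called 0 of 109 members, where 0.227% of genes were called. The 1 gene called for manganese in W and for the interaction, Glyma.12G172300, was no member, since its OX3 log2 ratio was -0.56. With the replicate block 0 genes were called in either comparison. The rule used both the OX3 and the W ratio, so the members' counts for manganese in OX3 and for the interaction follow from their selection, and nothing is read from them.

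Between materials, edgeR called 0 members at either dose. It called 0.0157% of genes at 50 µM (5 genes) and 0.0126% at 5 µM (4 genes), and the 4 were 0 in a fit blocked on replicate number. At 50 µM 33 members had an unadjusted p under 0.05 and were lower in OX3, where 4.39% of all genes were. At 5 µM 15 were higher in OX3, where 4.56% of all genes were, and 1 was lower, where 5.67% were. DESeq2 called 3 members at 50 µM, where 0.753% of genes were called. These were Glyma.16G159700, Glyma.09G024500 and Glyma.18G291500, all lower in OX3. At 5 µM it called 2 members, where 0.734% of genes were called, Glyma.13G081100 as higher and Glyma.16G159700 as lower. These tests share the W libraries with the rule, and nothing is read from the members' counts.

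Members lay on all 20 chromosomes, with 12 on chromosome 4, 10 on chromosome 13 and 9 on chromosome 8. Chromosome 4 held 10.8% of members and 4.73% of the 25399 genes. Glyma.04G048100 and Glyma.04G048300 were the one pair of members within 5 places of each other among those genes, and were next to each other. Glyma.04G048100 had 12.1, 10.4 and 8.28 CPM at 50 µM and 6.85, 4.22 and 13.7 CPM at 5 µM in OX3, and 11.6, 28.1 and 9.75 CPM at 50 µM and 7.22, 1.66 and 7.36 CPM at 5 µM in W. Glyma.04G048300 had 2.64, 2.31 and 1.35 CPM at 50 µM and 1.75, 1.27 and 3.22 CPM at 5 µM in OX3, and 4.19, 4.21 and 3.01 CPM at 50 µM and 1.25, 0.858 and 1.51 CPM at 5 µM in W. Replicate 4 was the lowest OX3 library at 50 µM and the highest at 5 µM in each of the pair.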

How the data were processed

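Read counts and FPKM values of 12 libraries were deposited by the authors. Tools named in the submitters' processing notes, with no roles, are HTSeq 0.6.0, HISAT2 2.1.0, TopHat2, Bowtie2 2.2.3 and CASAVA. Strand use and the treatment of reads shared by similar genes are not given in the sources used here. The deposited FPKM were counts scaled by column total and by gene lengths that came out whole within 8.7e-11. These lengths are used here. Sample titles gave groups and replicate numbers. Of 43517 identifiers 0 matched the reference table of 59048 genes, so the 18 lists by product, cell type markers included, had no member and no sequence was read.

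Members and lists were chosen with earlier results of these data known. Named members are those with the largest W ratio (10), the largest mean CPM (5), the highest and lowest OX3 position (5 each), and the smallest p for manganese in W and for the interaction (5 each). Genes at thresholds are given by value only. The 3 classes by OX3 library order, the chromosome 4 pair and Glyma.16G195600 were chosen after their values were seen.

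All 12 libraries were fitted in edgeR 4.0.16 (R 4.3.3) after filterByExpr, with TMM factors from 0.859 to 1.247, quasi-likelihood F tests and Benjamini-Hochberg adjustment over 31841 genes. Simulated counts for manganese in W covered 31253 genes, with 50 changed at each size. The share found was 6% at 2-fold, 62% at 4-fold and 90% at 8-fold, with 9 false calls. The simulated counts varied independently from gene to gene, without deviations shared by the genes of a library. These shares may therefore not hold for the real libraries. Alternatives were DESeq2 1.42.0, other scalings, filters and thresholds, a replicate block, 2 groups alone and each library left out. Same-numbered OX3 and W controls deviated together (r = 0.261, 0.445 and 0.272 across genes), so the numbers were taken to pair those groups, from the data alone. Other groups did not meet that standard.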

Additional observations from a re-analysis of the deposited data

Results flagged for a closer look

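Glyma.12G172300, which is no member, is listed because its manganese effect differed between OX3 and W. The interaction was -2.51 on the log2 scale in edgeR's test (SE 0.27, adjusted p = 0.029), with a response of -0.42 in OX3 and 2.09 in W. No gene was called for the interaction with the replicate block (0), without a filter on low counts (0) or with any 1 library left out (0). With DESeq2 size factors edgeR called 1 gene for it, and DESeq2 called 72.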

How the results depend on the processing

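The 111 members depend on where the limits stand and on single libraries. Their number was 174 on DESeq2 size factors (77 of the 111 shared), 193 with an OX3 window of 0.5, 33 with a W minimum of 1.5 and 71 without both OX3 libraries numbered 4 (47 shared). Leaving out 1 library gave 88 (OX3 replicate 4 at 50 µM) to 277 (W replicate 2 at 5 µM). On TMM totals 27 of the 111 had an OX3 ratio above 0.3, and 157 genes met the rule. Over the 30 named members and the settings run, 13 OX3 ratios moved by more than the spread between replicates and 497 did not. For the W ratios 8 moved and 502 did not. Leaving out a W library could not change an OX3 ratio, and leaving out an OX3 library could not change a W ratio. Part of the 497 and of the 502 was therefore fixed in advance. W ratios stayed above 0 in the settings run. On raw totals the rule required this, since every W library at 50 µM lay above every W library at 5 µM. OX3 ratios, which the rule keeps near 0, changed sign in some settings.

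DESeq2 called 1616 genes for manganese in W, 1116 in OX3, 72 for the interaction, 239 between materials at 50 µM and 233 at 5 µM, where edgeR called 1, 0, 1, 5 and 4. Among members DESeq2 called 59 for manganese in W, 3 between materials at 50 µM and 2 at 5 µM. The replicate block gave 0 for manganese in W, 0 for the interaction and 0 between materials at either dose. Fits of 2 groups alone gave 0 between materials at either dose, and could not be made for the interaction. Without a filter on low counts the interaction had 0. Leaving out 1 library gave 0 to 9 genes for manganese in W, 0 to 8 in OX3, 0 for the interaction in every case, 0 to 6 between materials at 50 µM and 0 to 100 at 5 µM, with the 100 found without W replicate 2. The cause of these differences was not tested. Where 1 read is worth up to 0.0659 CPM, members near 2 CPM rest on few reads in their lowest libraries.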
